A study of Drosophila melanogaster with 2 samples.

Results

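Intergenic distal summits of Odd-eGFP were the peaks of the IDR list (irreproducible discovery rate, a filter that keeps peaks found in a like order in replicates) whose highest point lay outside every annotated gene and more than 500 bp from every annotated transcription start site (TSS). By this rule 531 of 4291 IDR peaks were members, a share of 12.4% (exact 95% Clopper-Pearson interval 11.4 to 13.4). Of the other IDR peaks, 1960 had a summit within 500 bp of a TSS and are called promoter peaks, 1677 lay in introns and 123 in exons. The rule used positions alone, on genome build dm6. Intervals given throughout cover counting error only, and peaks are not replicates of the embryos.

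The peaks came from ChIP-seq of whole Drosophila melanogaster embryos of both sexes, 0 to 16 h old, from a stable transgenic line whose odd product carries GFP at its C terminus. Chromatin sheared by sonication to 200 to 800 bp was enriched with an antibody to GFP. There were 2 biological replicates and 1 group, so no contrast between conditions exists and no test was made. Embryos of this age range hold many cell types and stages, and peaks from them cannot be assigned to any one of them. The depth of each library is unknown, since the lists hold peaks and no reads. No control library was analysed here.

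Odd skipped is a zinc-finger transcription factor of the pair-rule class, which helps to set the segments of the early embryo and acts mainly as a repressor. Its relatives drm, sob and bowl share the zinc fingers and take part in the development of the gut and legs. Regulatory sequence of fly developmental genes often lies far from the promoter, as enhancers that switch a gene on or off in part of the embryo, and a summit in intergenic sequence may be near such an element or near none.

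The summit and the 100 bases on each side of it are shown for 3 of the strongest members, since they carry the highest signal values and include members with none of the 13 words searched. Capitals mark TAATTA, the core of many homeodomain sites and the only searched word found in them. The first lies between jp and brwl, the second between RFeSP and chinmo and the third between the neighbouring Polycomb group genes ph-d and ph-p.
jp and brwl, chr2L:9567410-9567610, plus strand: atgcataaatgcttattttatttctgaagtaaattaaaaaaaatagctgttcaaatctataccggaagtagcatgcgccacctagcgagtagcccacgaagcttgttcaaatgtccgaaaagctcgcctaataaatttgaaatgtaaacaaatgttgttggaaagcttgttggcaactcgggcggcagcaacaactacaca
RFeSP and chinmo, chr2L:1638680-1638880, plus strand: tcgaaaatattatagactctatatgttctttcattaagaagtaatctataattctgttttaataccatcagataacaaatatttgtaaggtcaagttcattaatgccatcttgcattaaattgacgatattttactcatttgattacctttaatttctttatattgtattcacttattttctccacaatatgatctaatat
ph-d and ph-p, chrX:2124071-2124271, plus strand: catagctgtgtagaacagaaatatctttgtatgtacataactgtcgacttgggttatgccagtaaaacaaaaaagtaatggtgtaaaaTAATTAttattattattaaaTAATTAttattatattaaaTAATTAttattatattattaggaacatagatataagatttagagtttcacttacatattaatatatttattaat
The third window holds TAATTA 3 times within a run of A and T. Neither of the other windows holds any of the words.

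The word ACAGTAGC, taken as the binding sequence of Odd, was found within 100 bp of the summit in 9 members. Of these, 3 chosen by rank are shown as 40 bases, with the word in capitals, because this word is the sequence tied most directly to the tagged protein.
CG17154 and vers, chr3L:12111517-12111556, minus strand: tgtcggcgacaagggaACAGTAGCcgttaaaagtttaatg
CG6168 and CG6163, chr3L:11350985-11351024, minus strand: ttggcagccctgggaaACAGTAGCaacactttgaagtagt
Dr and CG7567, chr3R:29585895-29585934, minus strand: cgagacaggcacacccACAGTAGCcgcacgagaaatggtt
They ranked 810, 1296 and 2399 in the IDR list, and each had a summit within 100 bp among the strongest 4291 peaks of both replicates. The third lies between Dr, a homeodomain gene of the dorsal nervous system and muscle, and CG7567.

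A word of 6 letters, AGTGTA, was found at 102 members. It was picked from these same windows, as the one of 2080 words of 6 letters with the greatest excess in members over the lowest-ranked distal peaks and the flanks, so its shares are a description. Words of 7 letters were also scanned. Of the members with AGTGTA, 6 chosen by rank follow, with the word in capitals, because they let the bases around the word be compared.
mtSSB and tara, chr3R:16224413-16224452, minus strand: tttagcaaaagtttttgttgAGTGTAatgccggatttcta
NijA and CG43245, chr3L:10752865-10752904, plus strand: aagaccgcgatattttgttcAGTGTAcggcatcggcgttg
CG3149 and AdamTS-B, chrX:5696424-5696463, minus strand: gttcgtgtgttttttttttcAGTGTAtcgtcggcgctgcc
slp1 and slp2, chr2L:3832414-3832453, minus strand: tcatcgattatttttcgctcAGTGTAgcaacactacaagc
noc and CG33648, chr2L:14505181-14505220, plus strand: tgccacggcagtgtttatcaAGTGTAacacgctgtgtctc
NijA and CG43245, chr3L:10740107-10740146, plus strand: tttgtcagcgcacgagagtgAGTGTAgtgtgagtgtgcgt
A run of at least 4 T lies in the 10 bases before the word in 4 of these 6. Over all 120 matches at members, T stood at 65.8% of positions 8 bases before the word, and at 63.3% 7 bases before, and C stood just before it in 45.8%. The first base after the word was close to even, with C, G and T at 26.7% each and A less often. At the next base A was commonest, at 34.2%, and G least common, at 15.8%. The median distance of the word from the summit was 67 bp, and 9 of 120 matches lay within 20 bp.

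Words varied between distal and other summits. ACAGTAGC was at 1.69% of members (9 of 531, interval 0.778 to 3.19), against 0.663% of promoter summits and 0.656% of intron summits. It was at 0.565% of the 531 lowest-ranked distal peaks of the relaxed list and at 0.377% and 0.188% of windows 1000 bp to the left and right of members. The interval of the members overlapped that of each of these sets, and the differences were not tested.

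AGTGTA stood at 19.2% of members (interval 15.9 to 22.8), at 14.8% of intron summits and at 11.7% of promoter summits. It stood at 6.59% of the lowest-ranked distal peaks and at 5.84% and 7.91% of the flanking windows. In the list of replicate 1 it was at 16.1% of distal, 14.7% of intron and 12.6% of promoter summits. In that of replicate 2 it was at 18.4%, 13.6% and 11.3%. The intervals of distal and intron summits overlapped in each of these lists. TAATTA stood at 19.0% of members, 16.9% of intron summits, 15.1% of promoter summits and 17.7% of the lowest-ranked distal peaks.

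Words known from promoters were less frequent at members than at promoter summits, as they were at introns. TATCGATA, a site of the promoter and boundary factors DREF and BEAF-32, was at 0 of 531 members, which allows a share of up to 0.565% by 3 counts and 0.692% by the exact interval. It was at 3.93% of promoter summits, 0.358% of intron summits and 0 of the lowest-ranked distal peaks. GGTCACAC, known as Motif 1 of fly core promoters, was at 0.377% of members, 2.70% of promoter summits and 0.298% of intron summits. GAGAGAG, the repeat bound by GAGA factor, was at 3.58% of members (interval 2.17 to 5.53) and 7.76% of promoter summits (6.61 to 9.03). It was at 5.19% of intron summits, 1.69% of the lowest-ranked distal peaks and 3.01% and 4.71% of the flanks.

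TTCNNNGAA, the site of STAT, was at 2.64% of members (interval 1.45 to 4.38), beside 6.14% of intron summits and 5.84% of the lowest-ranked distal peaks. In the single lists it was at 3.98% of distal and 6.004% of intron summits of replicate 1 and at 3.37% and 6.02% of replicate 2, and there the intervals of the 2 classes overlapped. CAGGTAG, the site of the early activator Zelda, was at 2.26% of members, with 12 members in all, beside 1.26% of all IDR summits, 1.69% of the lowest-ranked distal peaks and 1.51% and 1.69% of the flanks. GATAAG, the GATA factor site, was at 12.2% of members and 15.9% of intron summits. TCAAGTG of Tinman stood at 4.52% of members, beside 4.47% of intron summits and 4.52% of the lowest-ranked distal peaks. GTGGGAA of Su(H) stood at 1.69% of members, beside 2.03% and 3.01% of those sets. TGANTCA of AP-1 stood at 5.08%, beside 5.01% and 2.82%. The CA repeat CACACACA stood at 3.77%, beside 5.37% of intron summits and a higher share still of the lowest-ranked distal peaks. For TTCNNNGAA in the IDR list, the interval of members lay below that of intron summits and overlapped that of the lowest-ranked distal peaks. For each of the other words in this paragraph, the interval of members overlapped those of intron summits and of the lowest-ranked distal peaks. No difference was tested. All words were searched on both strands, and none of the 13 holds another in full. No match shows that a factor was bound.

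**Figure D1:**
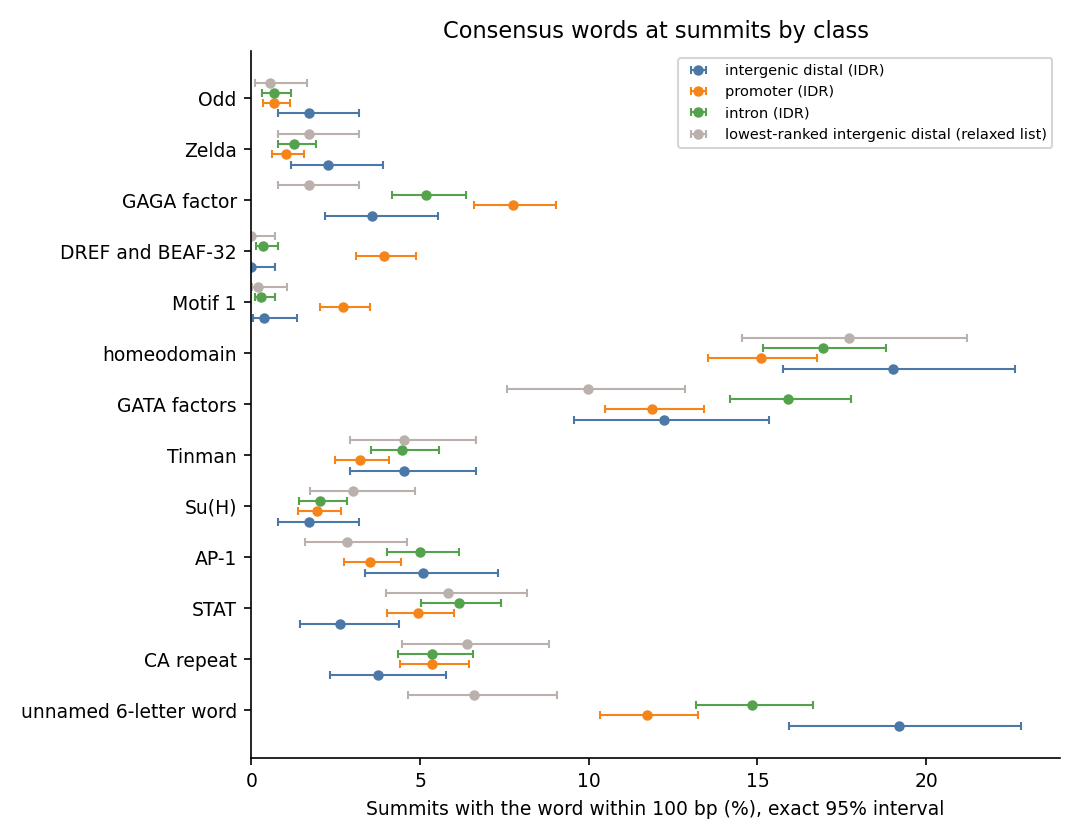
Share of summits (%) with each of 13 words within 100 bp on either strand, with exact 95% intervals, for intergenic distal, promoter and intron IDR summits and for the lowest-ranked intergenic distal peaks of the relaxed list. The words of DREF and BEAF-32 and of Motif 1 are highest at promoters, at 3.93% and 2.70%, and the unnamed word, chosen from these data, is highest at distal summits, at 19.2%.

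The base composition of members was lower in G and C than that of their surroundings. The median GC share within 100 bp of the summit of members was 36.8% (interval 35.8 to 37.8), beside 41.8% and 41.3% in the windows 1000 bp to the left and right. Promoter summits had a median of 37.3%, intron summits 35.8% and the lowest-ranked distal peaks 40.8%. All 3 classes of IDR summits had medians below those of the flanks and of the lowest-ranked distal peaks.

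Distal summits were sparse for the sequence that could hold them. Intergenic distal sequence made up 28.3% of the genome, 38.97 Mb, and held 13.6 summits per Mb, beside 31.2 per Mb over the whole genome, a ratio of 0.437. Promoter sequence held 107 per Mb, introns 31.2 and exons 4.64. No list has a peak on Y, which holds 2.51 Mb of distal sequence, and with Y left out the ratio was 0.454.

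The IDR list was identical to the strongest 4291 of the 30000 pooled relaxed peaks, which are background-inclusive, so entry to it is a threshold on the pooled signal value, the caller's own score for a peak. Of 6191 distal peaks in the relaxed list, 531 were in the IDR list, a share of 8.58% (interval 7.89 to 9.30). The share over all relaxed peaks was 14.3%, with 23.9% for promoter peaks and 11.9% for intron peaks.

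Members were more frequent lower in the IDR list. With the list cut by rank into 5 parts of 858 or 859 peaks, distal summits were 8.50% of the strongest part, 12.7%, 12.6% and 12.6% of those that followed and 15.5% of the weakest. The median signal value of members was 205 (interval 199 to 213), with quartiles of 166 and 294 and a range of 145 to 1769. Promoter peaks had a median of 236 and intron peaks 212. The ratio of the distal to the promoter median was 0.869 in the pool, 0.871 in replicate 1 alone and 0.927 in replicate 2 alone. Members had a median width of 464 bp (116 to 606).

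Members recurred in both replicates about as often as other IDR peaks. Among the strongest 4291 peaks of each replicate, 435 members (81.9%) had a summit within 100 bp in replicate 1 and 420 (79.1%) in replicate 2. Both replicates held 351 members, 66.1% (interval 61.9 to 70.1), beside 66.6% of all IDR peaks, 66.9% of promoter and 66.4% of intron peaks. Of the rest, 84 were matched in replicate 1 alone, 69 in replicate 2 alone and 27 in neither. The IDR list was made from both replicates, so these shares are not independent of membership.

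The signal values of the 517 members covered by a peak in each replicate had a Spearman's rho of 0.664 across peaks, beside 0.751 for promoter and 0.682 for intron peaks. These points share the same pair of libraries and are given as a description. No peak of replicate 1 covered 7 members and none of replicate 2 covered 8.

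**Figure D2:**
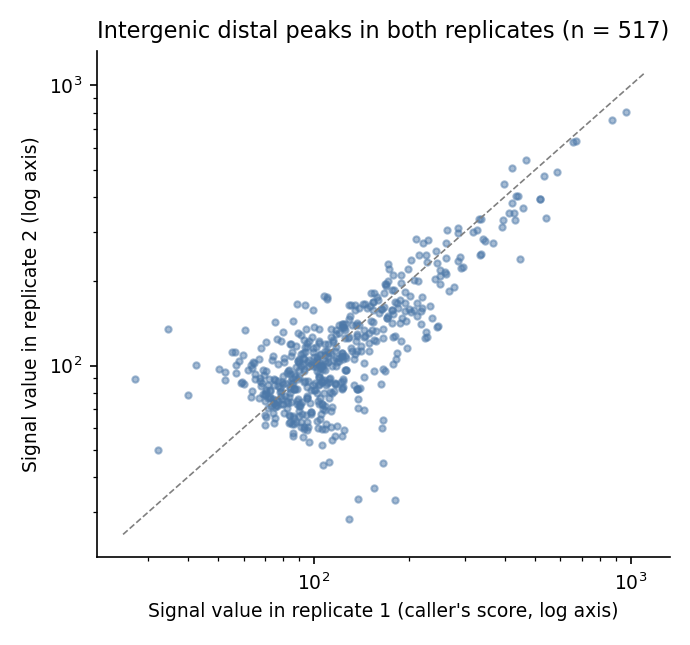
Signal value in replicate 1 (x axis, log scale) against replicate 2 (y axis, log scale), in the caller's units, for the 517 intergenic distal peaks covered in both replicates, with equal values on the dashed line. The strongest member had values of 968 and 801 in replicates 1 and 2, and the member at IDR rank 223 had 449 and 240. Spearman's rho was 0.664.

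Members lay mostly within 5 kb of a protein-coding TSS, with a long tail. The median distance was 4048 bp (interval 3481 to 4661), with quartiles of 1593.5 and 10025.5 bp and a range of 504 to 60321 bp. There were 370 beyond 2 kb, 227 (42.7%) beyond 5 kb, 133 beyond 10 kb and 40 beyond 20 kb. Density fell with distance, from 37.2 per Mb between 0.5 and 1 kb to 25.7 between 1 and 2 kb, 19.3 between 2 and 5 kb and 13.2 between 5 and 10 kb. Between 10 and 20 kb it was 13.9 per Mb, and between 20 and 50 kb 7.29 per Mb. Beyond 50 kb, 7.21 Mb held 2 members, 0.278 per Mb, and the relaxed list had only 16 peaks there. Whether reads from that sequence were kept was not given in the sources used here.

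**Figure D3:**
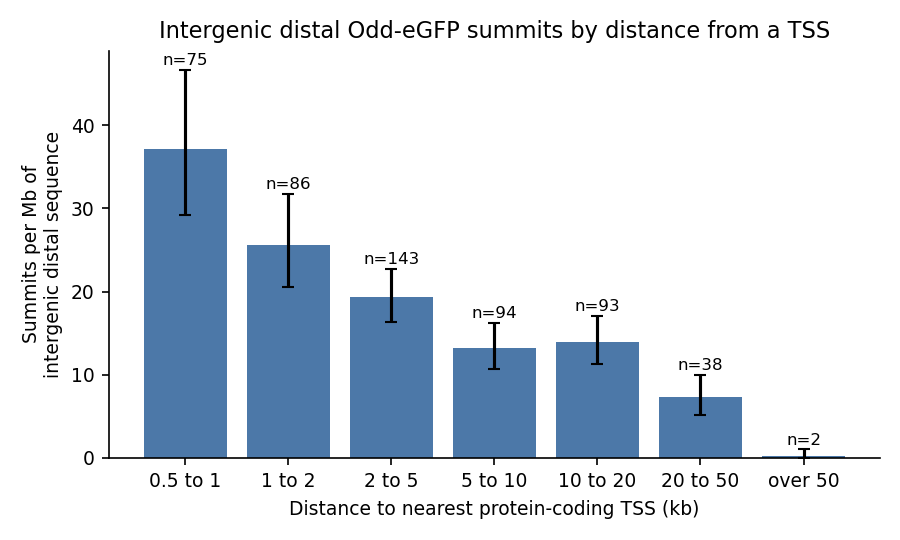
Intergenic distal IDR summits per Mb of intergenic distal sequence (y axis) by distance to the nearest protein-coding TSS in kb (x axis), with exact 95% Poisson intervals and the number of summits over each bar. The density falls from 37.2 per Mb at 0.5 to 1 kb to 7.29 per Mb at 20 to 50 kb.

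The nearest TSS of any kind belonged to a protein-coding gene for 334 members, to a non-coding RNA gene for 182 (34.3%), to a tRNA gene for 14 and to a pseudogene for 1. The peak interval of 25 members (4.71%) reached into a gene, and no interval held a TSS. Just inside the limit, 36 members lay 501 to 600 bp from a TSS, with a median signal of 238 (148 to 828), and the closest lay 504 bp from PHDP with a signal of 207. Just outside, 46 IDR summits lay 400 to 500 bp from a TSS, with a median of 227 (145 to 966), and the closest lay 499 bp from lncRNA:CR44828 with a signal of 256.

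Arms differed in how many members they held. Arm 3L had 167 and 2L 138, at 18.4 and 20.6 per Mb of distal sequence. Arm 3R had 105 (13.7 per Mb), 2R 69 (9.27 per Mb), X 48 (9.04 per Mb) and chromosome 4 had 4 (16.3 per Mb). Members were 18.1% of IDR summits on 3L and 6.92% on X. Males carry 1 X, and the values for X were not corrected for copy.

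Divergent gene pairs held more members than their share of sequence. A gap is the stretch between the nearest protein-coding genes on each side, and the genes on its sides adjoin it. Gaps between genes transcribed away from each other held 170 members, 32.0% (interval 28.1 to 36.2), and 22.3% of distal sequence, or 19.6 per Mb. Gaps between genes that point at each other held 109 members, 20.5% against 21.3% of sequence, 13.1 per Mb. Gaps between genes in the same direction held 252, 47.5% against 51.6%, 12.5 per Mb. The part of distance to a TSS in these densities was not tested.

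Of 5556 gaps with distal sequence, 337 (6.07%) held a member. With 531 members, only a minority of gaps could hold one. The 95 gaps with at least 2 members held 289 of them, 54.4% (interval 50.1 to 58.7), and the 45 with at least 3 held 189. Occupied gaps had a median length of 11377 bp, beside 1692 bp over all gaps, and held 14.5% of distal sequence. Longer gaps have more room for a summit, and the part of gap length in these values was not tested. The nearest other IDR summit, of any class, lay at a median of 3337 bp from a member, and 113 members (21.3%) had one within 1 kb, beside 23.9% of promoter and 22.4% of intron summits. Some 52 members (9.79%) shared a merged region with another IDR peak.

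The gap between RFeSP, which encodes the Rieske protein of respiratory complex III, and chinmo, a BTB zinc-finger gene of neuron identity and germline sex, held most members, 8 in 37.1 kb (2L, 1614161 to 1651257). Their signal values were 203, 186, 585, 152, 1273, 1015, 294 and 617, in order along the arm. The highest, at ranks 41 and 83, lay 24.6 and 29.3 kb from the RFeSP end, and all 8 were matched among the strongest peaks of both replicates. The strongest had a signal of 658 in replicate 1 and 628 in replicate 2. Its neighbour had 534 and 476, so both replicates place these 2 at the top of the gap.

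Between mtSSB, a mitochondrial DNA-binding protein gene, and tara, which encodes a transcriptional coregulator, 7 members lay in 20.4 kb (3R, 16205251 to 16225650). Their signal values from the mtSSB end were 191, 218, 184, 860, 716, 496 and 804. The 4 nearest to tara were the 4 highest, within 16.6 to 19.3 kb of the gap's start. Of these, the 3 at ranks 136, 223 and 491 lay 270 and 340 bp apart in 1 merged region. In replicate 1 no peak covered the member nearest to mtSSB, and 6 of 7 were matched in both replicates.

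The gap between NijA, which encodes the cell-surface protein Ninjurin A, and CG43245 had 7 members in 75.05 kb (3L, 10696878 to 10771924), with values of 169, 172, 370, 487, 766, 152 and 330. All lay in the right part of the gap, the first of them 38.4 kb from its start, and 5 were matched in both replicates. The gaps between CG44362 and CG7560 (27.3 kb) and between CG6168 and CG6163 (40.3 kb), both on 3L, each held 7 members, with highest values of 434 and 491. In the former, 1 peak of replicate 1 covered 2 members 204 bp apart.

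**Figure D4:**
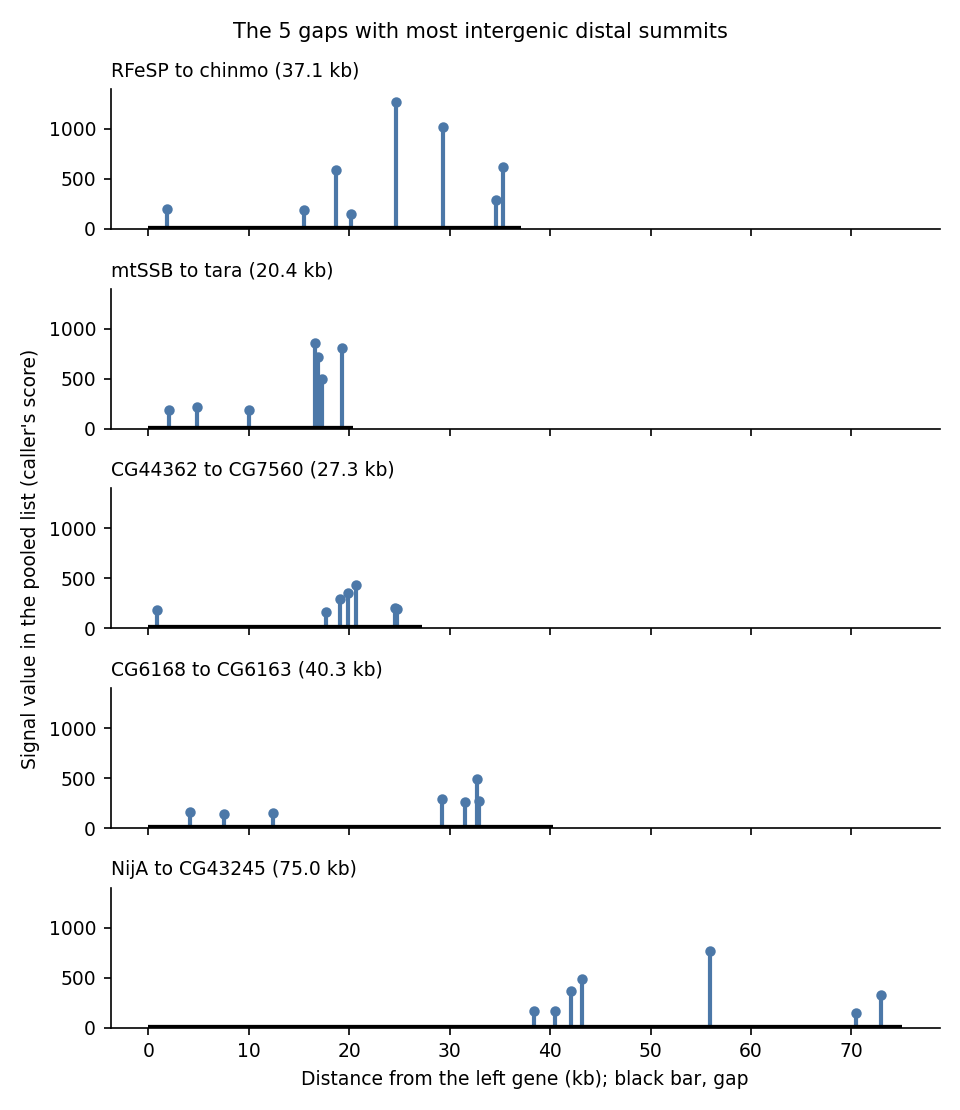
Signal value in the pooled list (y axis, caller's score) of each intergenic distal summit against its distance from the left gene in kb (x axis) in the 5 gaps with most members; the black bar is the length of the gap. The RFeSP to chinmo gap holds the tallest peaks, at 1273 and 1015, and in the mtSSB to tara gap the 4 tallest lie at the tara end.

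The 20 strongest members had signal values of 670 to 1769 and IDR ranks of 9 to 257, in 16 gaps, and all 20 were matched among the strongest peaks of both replicates. They lay at a median of 3404.5 bp from a protein-coding TSS (548 to 19077 bp), and 9 were in divergent gaps. Of the 20, 14 ranked at least as high in replicate 1 as in replicate 2, and ranks differed widely for some, such as 142 and 490 for the member of the tara gap at IDR rank 223. The strongest lay between jp, which encodes the junction protein junctophilin, and brwl (2L, 9567317 to 9567763), 760 bp from the TSS of jp, at rank 8 in replicate 1 and 12 in replicate 2.

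The peak between Su(z)2, a Polycomb group gene of the chromatin repressors that hold developmental genes silent, and CG13323 (2R, 13035130 to 13035567) had a signal of 1629 and ranked 13. It lay 11910 bp from the nearest protein-coding TSS, that of CG13323. Between CG13321 and Psc, another gene of that group, lay 2 of these 20, at ranks 113 and 210 with signals of 919 and 738. The TSS of CG13321 was the nearest to both, at 5828 and 4744 bp. Another member of that gap, at rank 1196 with a signal of 309, was a further summit of the peak at rank 113. The peak between ph-d and ph-p had a signal of 1065 and ranked 69, 885 bp from the TSS of ph-d.

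Of the rest, the peak between blw, an ATP synthase subunit gene, and CycB, which encodes the mitotic cyclin B, had a signal of 1307 at rank 37. Between Asator and zfh2, a zinc-finger homeodomain gene, the signal was 835 at rank 155 on chromosome 4. The peak between C15, a homeodomain gene of the leg tip, and sp3 had a signal of 828, and the nearest TSS, 548 bp away, was that of sp3. Between CG7906 and fz, the receptor of Wingless, the signal was 708 at rank 226. Peaks beside Aldh-III and wech, Hacd1 and Rh5, COX7AL2 and CG31668, Sol1 and Cyp9f2, and CG11349 and CG7465 had ranks of 115, 146, 148, 182 and 257. The remaining 6 members of this set lay in the gaps of chinmo, tara and NijA.

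The 5 members farthest from a protein-coding TSS ranked between 2259 and 3846. The farthest lay 60321 bp away in the gap between vvl, a POU homeodomain gene, and Prat2, with a signal of 203 at rank 2475, and was matched in both replicates. The next lay 59495 bp away between Cyp12e1 and hth, a homeodomain cofactor of Hox proteins, at rank 2812, and was matched in replicate 2 alone. A pair lay 45098 and 44322 bp away between the cell death genes grim and rpr, at ranks 2954 and 2259. The last, 39664 bp away between CG6414 and CG43689, ranked 3846. For all 5 a long non-coding RNA gene had a nearer TSS.

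Genes beside occupied gaps had a promoter summit more often than protein-coding genes as a whole. Of the 613 protein-coding genes that adjoined an occupied gap, 4.39% of the 13968 genes, 140 (22.8%) had an IDR summit within 500 bp of a TSS, beside 14.3% of all protein-coding genes. Of the 531 members, 310 (58.4%) had no promoter summit at either flanking gene, 186 had it at 1 and 35 at both. Most protein-coding genes had none, and the same share over the flanking genes of all gaps was not counted.

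In the odd family, 3 of 4 genes adjoined a gap with members: drm with 6, odd with 6 and sob with 5, and bowl with 0. The gaps beside these 4 genes held 13 members in 60.4 kb of distal sequence, 215 per Mb (exact Poisson interval 114.6 to 368), beside 13.6 over all distal sequence. The genes sob and odd adjoin the same gap, whose 4 members count for both. All 13 members lay in 1 stretch of 2L, between drm and Ugt36A1. Whether the transgene adds copies of this stretch was not tested, and the values were not corrected for copy. The 6 between drm and CG43815 (2L, 3548424 to 3576209) had signals of 348, 251, 211, 184, 168 and 148 from strongest to weakest, and 4 were matched in both replicates. Between sob and odd, 4 members had signals of 191, 177, 159 and 151, and 1 was matched in both. The strongest and the third of these 4 were covered by the same peaks in each replicate. Between odd and Ugt36A1, 2 members had signals of 274 and 235, the stronger 5196 bp from the TSS of odd, and both were matched in both replicates. The gap of CG43815 and sob held 1, with a signal of 145. The strongest distal member of the family, at rank 967, was number 88 among the 531 by signal.

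Among the pair-rule genes, which divide the embryo into repeated stripes, 4 of 9 (44.4%, interval 13.7 to 78.8) adjoined members. The share over all protein-coding genes was 4.39%, for this list and those that follow. The gap of slp1 and slp2, a pair of forkhead genes, held 2, the stronger with a signal of 632 at rank 290. It ranked 306 and 287 in the replicates and lay 4327 bp from slp2. The gaps of hry, the bHLH repressor hairy, held 5, the strongest at rank 819. The others were odd, and prd, eve, opa, ftz and run had 0. The gaps of these 9 genes held 13 members, 52.0 per Mb (interval 27.7 to 88.95), beside 13.6 over all distal sequence. Of these 13, 6 were those of odd, whose stretch was not corrected for copy. The density without odd was not calculated.

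Of 11 gap genes, which set the broad regions of the embryo, 5 adjoined members, at 19.7 per Mb (interval 7.93 to 40.7), which includes the 13.6 of all distal sequence. The strongest were at ems, a homeobox gene of the head (rank 1694), kni, a nuclear receptor gene (rank 2451), and oc, the orthodenticle homeobox gene (rank 2528). Of 11 segment polarity genes, which pattern each segment, 6 adjoined members, at 24.5 per Mb (interval 9.86 to 50.5). They were led by ptc, the Hedgehog receptor (rank 826, signal 380), wg, a Wnt ligand (rank 1534), and mid, a T-box gene (rank 2155). Of 8 Hox genes, which give segments their identity, 1 did, abd-A, with a member at rank 1322 nearest to the TSS of Glut3. The Hox share was 12.5% (interval 0.316 to 52.7) and the density 16.7 per Mb (interval 2.03 to 60.5). These intervals include the 4.39% of all protein-coding genes and the 13.6 per Mb of all distal sequence.

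Of 19 mesoderm and heart factors 6 adjoined members, at 28.0 per Mb (interval 10.3 to 60.96). The strongest, beside the visceral mesoderm forkhead gene bin, had a signal of 661 at rank 265, 1300 bp from its TSS. The gap of the T-box genes Doc1 and Doc2 held a member at rank 1885. Of 22 neural factors 5 did, at 26.7 per Mb (interval 12.8 to 49.1), led by SoxN (rank 545), pros (rank 909) and D (rank 1145). The member beside pros, a homeodomain gene of neuron fate, lay 59264 bp from its TSS and 24914 bp from that of CG5214. Of 25 leg, disc and eye factors found, 10 did, at 19.6 per Mb (interval 10.1 to 34.2). The intervals of the segment polarity, mesoderm, neural and leg lists all include the 13.6 per Mb of distal sequence as a whole. The strongest member beside leg, disc and eye factors lay between the Pax genes toe and eyg (rank 1034), followed by that of hth at rank 1082.

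Signalling ligands had 7 of 31 genes with members, at 13.8 per Mb, close to the 13.6 over all distal sequence. These included the Wnt genes wg and Wnt4, which share a gap and a member, and Ser, a ligand of Notch (rank 1856). Nuclear receptors had 4 of 21, at 19.6 per Mb (interval 6.36 to 45.7), led by kni, knrl and Hr51. The list of replicate 1 alone gave 2, and none of the 4 genes had the TSS nearest to its member. Odorant and gustatory receptor genes had 6 of 119 (5.04%, interval 1.87 to 10.7), near the 4.39% of all protein-coding genes, at 12.8 per Mb. The strongest, at rank 1227, adjoined Or56a but lay 56185 bp from its TSS and 972 bp from that of CG8517, and the next was at Gr89a (rank 1290). Cytosolic ribosomal protein genes had 3 of 92 (3.26%, interval 0.678 to 9.23), at 6.84 per Mb, namely RpS23, RpLP0 and RpS7. The member of RpS7 was matched in neither replicate, and the list of replicate 2 alone gave 1 gene. Lists share genes and differ in the length of their gaps: those beside the 11 gap genes held 0.355 Mb of distal sequence and those beside the 92 ribosomal protein genes 0.585 Mb.

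**Figure D5:**
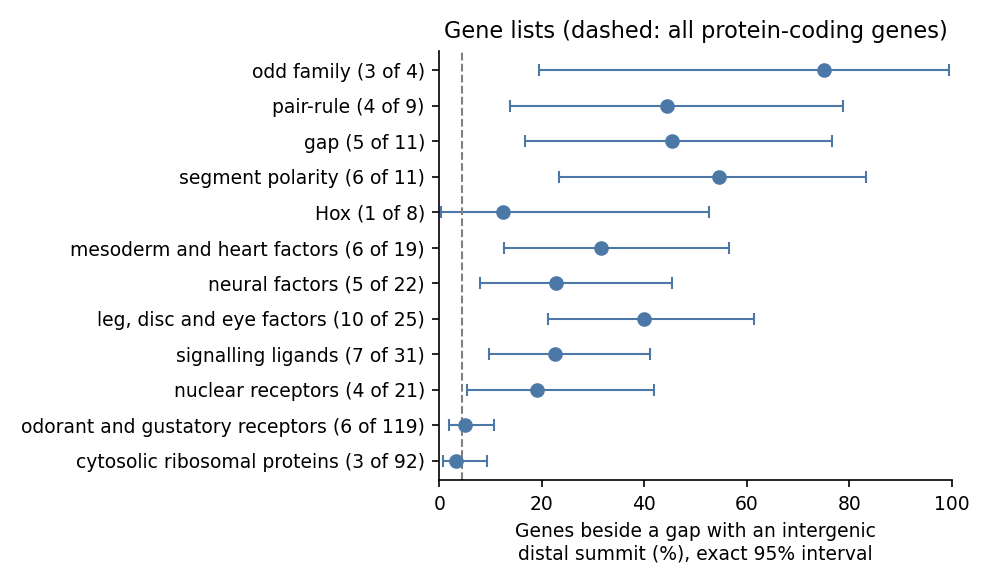
Share of genes (%) in each list that adjoin a gap with an intergenic distal summit, with exact 95% intervals; the dashed line is the 4.39% of all protein-coding genes. Segment polarity genes stand at 6 of 11 and ribosomal protein genes at 3 of 92, below the line.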

How the data were processed

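Odd-eGFP ChIP-seq of 2 biological replicates was analysed from 4 deposited dm6 peak lists: the relaxed list of each replicate, that of the pool and the IDR list. Per the files' text records, relaxed lists were called on alignments with a control, and the 3 of them gave the IDR list. The caller, the aligner and the IDR cutoff were not given in the sources used here. Each deposited signal value is the authors' score per peak, used only to rank and compare peaks within 1 list. The summit is another deposited number, an offset in bp from the peak start. Coordinates are 1-based. The dm3 lists were not used here, and no sequence of arm 2R is shown, so the sequences are those of the highest-ranked members on the other arms.

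Genes came from Ensembl release 115 and sequence from NCBI Release 6, to which the peaks' coordinates fit (0 pooled peaks past a chromosome end). Classes were assigned in the order promoter, exon, intron and intergenic, and the sequence of each class was counted base by base. Replicate peaks matched at 100 bp between summits. Shares have exact Clopper-Pearson intervals, medians order-statistic intervals and densities exact Poisson intervals, all at 95% and for counting error only. An upper limit for a count of 0 is 3 counts of the total. Read depth is unknown. The calculations (Python 3.11.15, numpy 2.4.6, pandas 2.3.3, scipy 1.17.1) were tested on simulated data. No significance test was run.

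The members, lists and words were chosen with earlier results of these data known. Transposable elements were at first to count as genes. They were left out after both counts had been seen, because earlier processing of the same lists had done so. With them 523 peaks are members and the density ratio is 0.496. Spellings of gene symbols were corrected once the files could be read, and 25 of 26 leg, disc and eye genes and 31 of 32 ligands were found. The word AGTGTA was added after a scan of the same windows. Named items are the 20 strongest members, the 5 fullest gaps, the 5 farthest members, up to 3 genes per list with the strongest member, and the genes of the odd family. Other gene names were chosen after their values were seen. Alternatives were other distances, windows, gene sets and peak numbers, and each replicate alone.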

Additional observations from a re-analysis of the deposited data

How the results depend on the processing

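With 1000 bp as the limit from a TSS, 426 peaks were members, their share was 9.93%, the density ratio 0.378 and the median distance 5321 bp. Among the stronger 50% of IDR peaks the share was 10.6%, the density ratio 0.374 and the share matched in both replicates 96.9%. With protein-coding genes alone, 659 peaks were members, with a share of 15.4% and a ratio of 0.494. With transposable elements as genes the ratio was 0.496, an alternative added after the data were seen. The share matched in both replicates was 53.7% at 50 bp, 70.6% at 250 bp and 90.4% with as many strongest peaks again. The median distance to the TSS of any gene was 2472 bp. With gaps between genes of any kind, 26.0% of members were in divergent gaps and 49.5% in gaps with at least 2. GC within 50 bp was 35.6%. ACAGTAGC lay within 50 bp of 0.377% of members. When a member counted for its nearest gene alone, 33 listed genes had one in place of 54.

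Without replicate 1 or 2, in turn, the ratio of distal to promoter signal ranged from 0.871 to 0.927. The other comparisons moved by less than their interval in each list alone, but ribosomal protein genes with a member fell from 3 to 1 without replicate 1, and nuclear receptors from 4 to 2 without replicate 2. Of 58 comparison values under the alternatives, 39 moved within and 19 beyond the spread. Of 120 values for single words and lists, 29 moved. At the nearest gene alone, gap genes had 2, neural factors 3, leg, disc and eye factors 5, ribosomal proteins 1, and Hox genes and nuclear receptors 0. The cause of these moves was not tested. No paired analysis was possible because there is 1 group and no contrast. Depth is unknown, so a gap without a member may only lack signal above the threshold.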

Other observations

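After the words of the report, 9 further words were looked at in the same windows, and all are counted here. At 4 of the 9, the share of members with the word was above that of promoter summits, intron summits, the lowest-ranked distal peaks and both flanks. These were AGGTGGCGC at 0.753% of members (4 of 531), AGNTGGCGC at 1.69%, GGTGGCGC at 1.32% and TGCATANTT at 3.77%. The first 3 overlap each other in sequence, and AGGTGGCGC is in the window of the strongest member, beside jp and brwl, which is how these words came to be looked at. The shares are a description with no test.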
